A study of Mus musculus with 43 samples.

Results

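CTLL-2 cells given interleukin 2 (IL-2) for 16 h were compared with the same cells after starvation alone, across all genes on the array. The comparison used 8 of the study's 43 arrays, chosen by their labels: 3 arrays of cells given IL-2 for 16 h (IL-2 16 h) and 5 arrays of cells taken before IL-2 was added (starved 0 h). CTLL-2 is a cytotoxic T cell line from the C57BL/6 mouse that depends on IL-2 for growth, and both groups had first been kept for 14 h without IL-2. The 16 h group then received human recombinant IL-2 at 100 U/mL. Gene expression was measured on Affymetrix Mouse 430 2.0 arrays in a time course that also held 9 other IL-2 times from 0.5 h to 24 h, and cells kept without IL-2 for 4 h and 8 h more. The series design calls the replicates biological and does not say how the cultures were kept apart. A starved control of the same age was not analysed here, so the effect of IL-2 and that of 16 h more in culture cannot be told apart here. One cell line was studied, so its responses are those of 1 line grown in vitro.

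IL-2 binds its receptor on T cells and signals through the kinases JAK1 and JAK3 to the transcription factor STAT5, and also through PI3 kinase and MAP kinase. Without it, CTLL-2 cells leave the cell cycle and later die. When growth factor returns, cells rebuild ribosomes and nucleotide pools, pass from G1 into S phase under the E2F transcription factors, load and fire replication origins, and then express the genes of mitosis. FoxO transcription factors drive a set of quiescence and survival genes when PI3 kinase signalling is low.

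All values below are array signals scaled by the authors, and differences are in log2(signal + 16), given with limma's standard error (±). A gene is represented by its brightest tested probe set, "rose" and "fell" mean an adjusted p under 0.05, and a list of genes is described by its counts and median. The median signal was 65.4, 58.9 and 62.7 on the IL-2 16 h arrays and 71.5, 112.2, 65.4, 76.5 and 70.2 on the starved arrays, with starved replicate 2 the highest. IL-2 16 h replicate 1 had a ratio of 3' to 5' signal for Gapdh of 1.41, against 0.863 and 0.861 in replicates 2 and 3 and 0.797 to 0.910 in starved cells. This ratio is a measure of RNA integrity, and results are therefore given with and without that array. For beta-actin the ratio was 1.31 in replicate 1, inside the starved range of 1.07 to 1.36. Replicate 1 lay at least 2-fold above both other IL-2 16 h arrays in 764 of 14534 genes and at least 2-fold below both in 921. The same counts were 323 and 420 for replicate 2 and 383 and 429 for replicate 3. How far RNA integrity set the values of replicate 1 was not tested.

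The labelled cell type was checked against marker genes. Gzma, Gzmb, Prf1 and Nkg7, which encode proteins of cytotoxic granules, were bright in both groups, with Gzmb at 42280, 36880 and 36310 at 16 h against 39730, 29580, 29490, 46200 and 31940 in starved cells. Cd8a and Cd8b1, which encode coreceptor chains, complete the 6 cytotoxic T cell markers tested. Cd8a was far dimmer, at 310.9 or less on the starved arrays, and rose by 1.93. Cd8b1 did not pass the test. Of 8 T cell markers tested, Thy1 rose by 0.65 ± 0.17, and Cd3e (-1.22 ± 0.29), Cd247 (-0.73 ± 0.14) and Zap70 (-0.73 ± 0.16) fell, with summed signals of 63586 to 96134 at 16 h and 71607 to 108863 in starved cells. After median centring none of those 3 falls passed the test. Markers of other cells were dim. The 5 B cell markers summed to between 88.4 and 197.0 at 16 h and between 131.6 and 426.4 in starved cells, and the 7 fibroblast markers to between 304.9 and 439.8 and between 213.5 and 1085. The 2 erythroid markers summed to at most 91.3 at 16 h and at most 221.8 in starved cells. None of these 14 changed. Of 7 macrophage markers, which summed to between 629.6 and 1506 at 16 h and between 1166 and 2388 in starved cells, Cd68 fell by 1.37 ± 0.32 and lost its call without replicate 1 (log2 difference -0.81). In bulk RNA, fewer cells of a type and less RNA per cell cannot be told apart, which holds for every result below.

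At 16 h of IL-2, 15.4% of the 32184 probe sets tested differed from starved cells, 2195 higher and 2757 lower. Without replicate 1 the share was 8.55%, with 1395 higher and 1356 lower. Counted by gene, 1305 of 14534 rose (8.98%) and 1576 fell (10.8%). These shares were 5.68% (826 genes) and 5.74% (834 genes) without replicate 1. With and without that array, 778 genes rose and 757 fell both times, and 125 genes were called only without it. All 3 IL-2 16 h arrays lay above all 5 starved arrays in 1348 genes (9.27%) and below all of them in 1886 genes (13%). The split between directions depended on the scaling. The median difference of all tested probe sets was -0.19 as deposited and 0.05 after the arrays were centred on their medians, and the share of called probe sets that were higher went from 44.3% to 73.3%. After quantile normalisation the median difference was -0.04 and the share 51.9%. Without starved replicate 2 they were -0.12 and 46.9%. Median centring left 1549 genes that rose and 592 that fell, so falls of moderate size are given below with their count after centring. Counts of the small lists below are to be read beside these numbers for all genes. The arrays came from several scan days, 2 of which held both groups. One held IL-2 16 h replicates 1 and 3 with starved replicates 3 and 5, and the other IL-2 16 h replicate 2 with starved replicate 4. The median difference of the origin licensing list described below was 2.40 on the first of these days and 1.71 on the second, beside 2.32 over all arrays and -0.08 and -0.16 over all genes on those days.

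**Figure D1:**
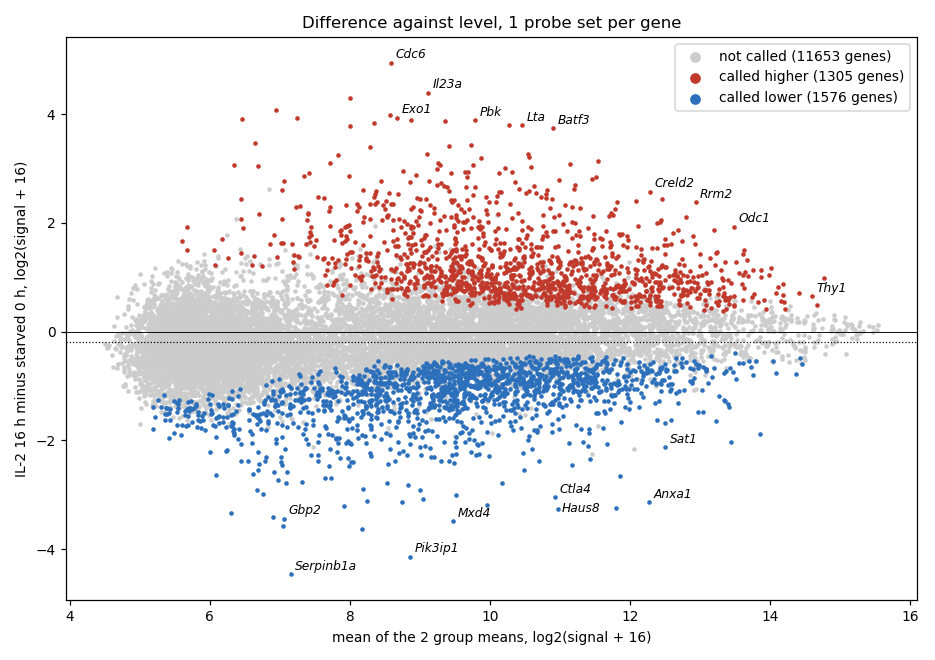
Difference between IL-2 16 h and starved 0 h cells (vertical axis, log2 of signal + 16) against the mean of both group means (horizontal axis, same scale) for 14534 genes. Red points are the 1305 genes that rose, blue points the 1576 that fell, and the dotted line is the median of all genes at -0.19. On this scale Cdc6 has the largest rise (4.95) and Serpinb1a the largest fall (-4.46).

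The 15 largest rises among genes without overlap between the groups held genes of DNA replication, recombination and mitosis together with several secreted factors. Cdc6, which loads the replicative helicase onto origins, had the largest rise with a constant of 16. Its signals were 2842, 1647 and 2044 at 16 h against 13.7, 53.3, 94.9, 160.0 and 24.0 in starved cells, a difference of 4.95 ± 0.60 (adjusted p = 3.6e-07). Il23a, the p19 subunit of interleukin 23, stood at 5082, 1906 and 1661 at 16 h against 87.9, 254.3, 129.2, 24.6 and 137.5 in starved cells, a difference of 4.40 ± 0.62. The groups did not overlap for either gene, and the rise of Il23a was 3.90 without replicate 1. Among the others were Etv4 (4.30 ± 0.69), an ETS family transcription factor, Cdca7 (4.08 ± 0.68), a chromatin factor that works with the remodeller Hells, and Lrr1 (3.99 ± 0.56), an adaptor of the ubiquitin ligase that unloads the replicative helicase. Cenpi (3.94 ± 0.65) is a centromere protein, and Exo1 (3.94 ± 0.60) and Rad51ap1 (3.88 ± 0.64) act in recombination and repair. Pbk (3.88 ± 0.58) is a kinase of mitotic cells, Enah (3.92 ± 0.61) an actin regulator, and Rrp9 (3.79 ± 0.77) a protein of the U3 small nucleolar particle. Enah rose on 2 of its 5 tested probe sets. Hbegf (3.87 ± 0.70), a growth factor of the epidermal growth factor family, and Lta (3.79 ± 0.54), lymphotoxin alpha, are secreted. Acpp (3.81 ± 0.45), an acid phosphatase, and the predicted gene Gm30873 (3.84 ± 0.76) completed the 15. For Lta the signals were 9429, 5238 and 2866 at 16 h against 387.0, 313.4, 343.4, 391.2 and 376.7 in starved cells, and every IL-2 16 h array lay far above a narrow starved range. All 15 kept their call when replicate 1 was left out.

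The 15 largest falls were led, with a constant of 16, by Serpinb1a, an inhibitor of serine proteases, whose signals were 44.4, 5.6 and 5.4 at 16 h against 760.3, 1125, 837.6, 534.6 and 303.3 in starved cells, a difference of -4.46 ± 0.69 (adjusted p = 1.6e-05). Pik3ip1, an inhibitor of PI3 kinase, followed at 59.6, 153.0 and 88.3 at 16 h against 3542, 2250, 1652, 1850 and 1094 in starved cells, a difference of -4.14 ± 0.70. Mxd4, an antagonist of MYC at DNA, stood at 95.9, 235.4 and 324.4 at 16 h against 2878, 1985, 2809, 3021 and 1542 in starved cells, a difference of -3.49 ± 0.69. All IL-2 16 h arrays were below all starved arrays for each of these genes. The rest of the group held Gbp2 (-3.44 ± 0.44), an interferon-induced GTPase, Ptprs (-3.26 ± 0.63), a receptor tyrosine phosphatase, Hdac5 (-3.20 ± 0.55), a histone deacetylase, and Anxa1 (-3.13 ± 0.40), annexin A1. It also held Slc26a11 (-3.42 ± 0.63), an anion transporter, Klhl24 (-3.13 ± 0.55), Jakmip1 (-3.19 ± 0.54), Tmem71 (-3.63 ± 0.49), Ipcef1 (-3.34 ± 0.62), Wdr95 (-3.12 ± 0.38) and AB124611 (-3.57 ± 0.52). Haus8, a subunit of the augmin complex of the mitotic spindle, fell by 3.24 ± 0.50 on its 1 probe set, from 12760, 11580, 8875, 16230 and 7488 in starved cells to 894.8, 2242 and 746.5 at 16 h. All 15 kept their call without replicate 1 and after median centring. Where the lower group lies near the floor of the array, the size of a difference depends on the constant added: it was 5.41 for Cdc6 and -5.71 for Serpinb1a with a constant of 1, and 4.15 and -3.16 with a constant of 64. The ranks turn with it too. With a constant of 1 the rise of Enah (5.55) was larger than that of Cdc6, and with a constant of 64 the falls of Pik3ip1 (-3.64), Mxd4 (-3.20) and Haus8 (-3.18) were larger than that of Serpinb1a. Low signals in the lower group touch Etv4, Cdca7, Lrr1, Cenpi, Enah, Rrp9, Gm30873, AB124611, Gbp2, Slc26a11 and Ipcef1 as well, and, among genes described below, Shmt1, Rad54b, Ltb, Il24, Fosl1, Egr2, Cth and Fbxo32.

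**Figure D2:**
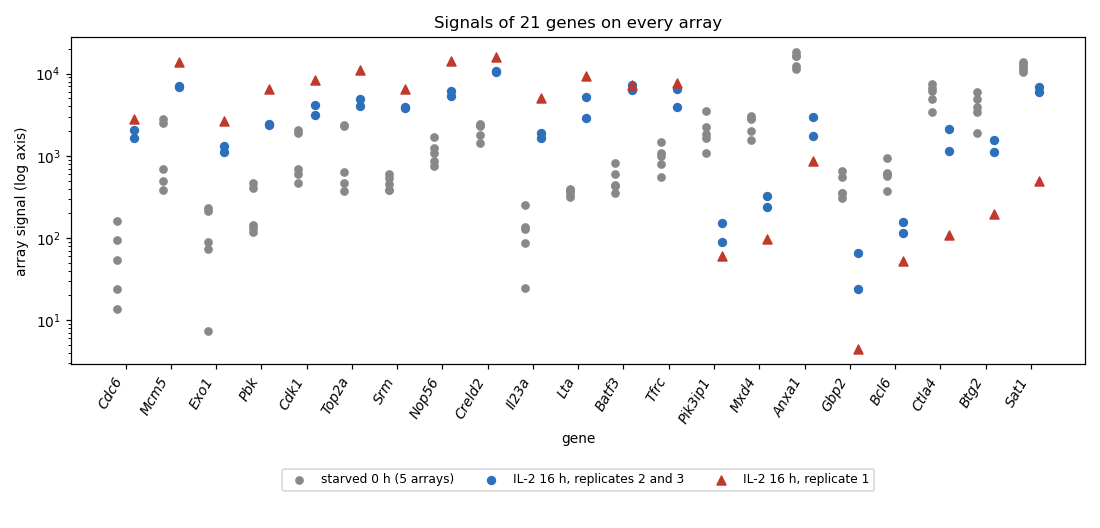
Signals of 21 genes on each array (log axis): gray circles are the 5 starved 0 h arrays, blue circles IL-2 16 h replicates 2 and 3, red triangles IL-2 16 h replicate 1. Replicate 1 lies above the other IL-2 16 h arrays for Pbk (6583 against 2433 and 2387) and far below them for Sat1 (497.1 against 6024 and 6834).

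Most genes of origin licensing and the replicative helicase rose. Of 28 tested, 25 rose and 0 fell, with a median difference of 2.32, beside -0.19 over all genes. Without replicate 1, 21 rose and the median was 2.09. Mcm5, a subunit of the MCM helicase, stood at 13960, 7106 and 6880 at 16 h against 490.7, 694.0, 2500, 2804 and 388.1 in starved cells, a difference of 3.13 ± 0.58. Mcm2 stood at 9186, 6667 and 6641 at 16 h against 1040, 809.1, 1837, 1342 and 592.7 in starved cells, a difference of 2.81 ± 0.37 (adjusted p = 1.1e-06). Gins1, part of the GINS complex that activates the helicase, rose by 3.27 ± 0.50. In starved cells Mcm5 was split, with replicates 3 and 4 at several times the signal of the other 3, and the IL-2 16 h arrays were above both levels.

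Promoters of these genes are shown because E2F sites are known to drive them. Windows of 300 bases, from 250 before to 50 after the transcription start, were taken from RefSeq (mouse build GRCm38.p6), which held 27 windows for 22 of the genes. An E2F motif (TTTCCCGC, TTTGGCGC, TTTCGCGC or TTTGCCGC, on either strand, where matches may overlap) lay in 12 of the 27 (44.4%), in 11 of 38 windows (28.9%) of the DNA polymerase and fork genes, and in 2.26% of all 32851 windows. Of lists described below, the G1 to S network had it in 8 of 25 windows and DNA repair and checkpoint in 7 of 27. Deoxynucleotide supply had it in 0 of 11, and purine, pyrimidine and one-carbon synthesis in 2 of 24. The 2 called licensing genes with the largest difference, 1 window and a match are printed 5' to 3' on the gene's strand, with the motif in capitals. Cdc6 lies at chr11:98907901-98908200 on the + strand, with the motif starting at base -138 relative to the start site, and Mcm5 at chr8:75109259-75109558 on the + strand, with 2 overlapping matches from -153 and -149. A match describes the letters in the window and is no measure of binding.
Cdc6: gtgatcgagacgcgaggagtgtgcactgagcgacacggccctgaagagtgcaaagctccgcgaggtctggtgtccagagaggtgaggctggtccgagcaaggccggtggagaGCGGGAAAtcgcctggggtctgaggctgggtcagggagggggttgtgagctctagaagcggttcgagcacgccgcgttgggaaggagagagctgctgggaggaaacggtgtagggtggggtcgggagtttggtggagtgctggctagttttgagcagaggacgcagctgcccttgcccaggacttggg
Mcm5: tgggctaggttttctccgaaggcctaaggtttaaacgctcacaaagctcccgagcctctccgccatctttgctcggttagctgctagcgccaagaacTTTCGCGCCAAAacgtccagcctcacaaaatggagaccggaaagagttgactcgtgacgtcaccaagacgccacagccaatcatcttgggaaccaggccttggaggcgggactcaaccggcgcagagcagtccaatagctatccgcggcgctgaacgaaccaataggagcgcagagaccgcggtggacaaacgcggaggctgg

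Among DNA polymerases and fork proteins 30 of 34 rose and 0 fell (median 1.71, and 26 with a median of 1.59 without replicate 1). Pole, the catalytic subunit of polymerase epsilon, rose by 3.42 ± 0.60, Uhrf1, which carries DNA methylation through replication, by 3.00 ± 0.42, Hells, a chromatin remodeller, by 2.65 ± 0.39, and Asf1b, a histone chaperone, by 2.58 ± 0.39. Hells rose on 1 of its 3 tested probe sets. Of 11 genes of deoxynucleotide supply, 7 rose with and 7 without replicate 1. Tk1, thymidine kinase, was at 3375, 5980 and 4134 at 16 h against 194.4, 337.3, 1102, 1206 and 412.4 in starved cells, a difference of 3.04 ± 0.52. Both subunits of ribonucleotide reductase rose, Rrm1 by 2.61 ± 0.36 and Rrm2 by 2.38 ± 0.32. So did Dck, Dut and Dctpp1, at 2.35 ± 0.33, 1.86 ± 0.26 and 1.84 ± 0.21. Nme1, a nucleoside diphosphate kinase, rose by 0.92 ± 0.30, a call that ended when any 1 of 4 arrays was left out (starved replicates 1 and 2, IL-2 16 h replicates 2 and 3), when the difference was as low as 0.62. Without IL-2 16 h replicate 1 the rise of Nme1 was larger, at 1.42 (limma, adjusted p = 0.0017). Replicates 2 and 3 lay above all starved arrays. Tyms, Dtymk, Rrm2b and Samhd1 did not pass the test, and Samhd1, which degrades deoxynucleotides, had a difference of -0.50. Tyms, thymidylate synthase, was dim on its brighter probe set, at 106.1, 67.4 and 87.6 at 16 h against 52.7, 25.0, 28.6, 41.9 and 43 in starved cells, and its other tested probe set rose.

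Purine, pyrimidine and one-carbon synthesis had 16 of 21 genes that rose and 1 that fell (median 1.71, with 15 and 1 and a median of 1.3 without replicate 1). After median centring no gene of the list fell. The leading members were Shmt1 (3.39 ± 0.62) and Mthfd1 (3.19 ± 0.46), enzymes of the folate cycle, Gart (2.91 ± 0.41) of purine synthesis and Umps (2.54 ± 0.48) of pyrimidine synthesis. Mthfd1 illustrates the spread among the treated arrays, at 6266, 2028 and 1776 at 16 h against 355.4, 217.9, 373.2, 304.2 and 251.4 in starved cells. Among DNA repair and checkpoint genes 17 of 32 rose and 0 fell (median 1.31, and 15 with a median of 1.08 without replicate 1). Exo1, an exonuclease of mismatch repair and end resection, was at 2688, 1306 and 1122 at 16 h against 7.4, 89.9, 228.9, 212.4 and 72.8 in starved cells. Brca1 rose by 2.94 ± 0.57 and Rad54b by 3.07 ± 0.45, both factors of homologous recombination.

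In the network that controls passage from G1 to S, 15 of 25 genes rose and 2 fell (median 1.24, with 12 and 1 and a median of 0.99 without replicate 1). E2f8, an atypical E2F that represses the S phase programme, rose by 3.11 ± 0.61, Fbxo5, an inhibitor of the anaphase-promoting complex, by 2.65 ± 0.45, Ccne2, cyclin E2, by 2.38 ± 0.49, and Cdc25a, the phosphatase that activates cyclin-dependent kinases, by 2.17 ± 0.41. The genes that fell were Rb1 (-1.34 ± 0.23) and Rbl2 (-1.49 ± 0.37), both of which encode pocket proteins that hold E2F in check. Both were chosen for mention after their values were seen, and both also fell after median centring. The call of Rbl2 ended without replicate 1, when its difference was -1.26. None of the 8 inhibitors of cyclin-dependent kinases tested passed limma's test, with differences from -0.85 to 1.09. Cdkn1b, p27, the inhibitor best known from quiescent T cells, was at 550.2, 790.9 and 1327 at 16 h against 1464, 3315, 1486, 592.3 and 1885 in starved cells, a difference of -0.85 (adjusted p = 0.29). For Cdkn1b the arrays overlapped. Cdkn1a, p21, had a difference of -0.07 at 6936, 12510 and 8799 at 16 h.

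Mitotic genes rose in part, and their counts moved with replicate 1. Of 37 genes of the kinetochore, spindle, condensin and cytokinesis, 18 rose and 0 fell, and all 37 differences were positive (median 1.47). Without replicate 1, 7 rose and the median was 1.18. Of 26 kinases and other factors of mitotic entry and exit, 11 rose (median 1.05), and 6 rose without replicate 1 (median 0.74). On the scan day with IL-2 16 h replicate 2 and starved replicate 4 alone, the medians were 0.62 for the kinetochore and spindle list and 0.17 for the mitotic kinases, and on the day with replicates 1 and 3 they were 1.20 and 0.84. Top2a, topoisomerase II alpha, was at 11040, 4935 and 4051 at 16 h against 378.1, 466.3, 2319, 2373 and 632.8 in starved cells, a difference of 2.71 ± 0.61. Spc25, a subunit of the NDC80 complex that attaches kinetochores to microtubules, was at 3706, 1247 and 757.5 at 16 h against 135.3, 112.4, 488.2, 486.5 and 138.0 in starved cells, a difference of 2.69 ± 0.57. Cdk1, the kinase of mitotic entry, was at 8484, 4158 and 3155 at 16 h against 463.2, 608.7, 1887, 2041 and 698.8 in starved cells, a difference of 2.32 ± 0.50, and 1.91 without replicate 1 (adjusted p = 0.028). On the day with replicate 2 alone the difference of Cdk1 was 1.02. In these genes IL-2 16 h replicate 1 was the highest array, and starved replicates 3 and 4 were the highest of the starved arrays. Bub1 (2.34 ± 0.69), Aurkb (2.33 ± 0.58) and Nuf2 (2.26 ± 0.64) rose with all arrays, and their calls ended without replicate 1, at 1.87, 1.88 and 2.01. The call of Bub1 also ended without starved replicate 1. Cenpk, a centromere protein, rose by 2.57 ± 0.34 and by 2.29 without replicate 1. It rose on 1 of its 3 tested probe sets, and Top2a and Spc25 each rose on 1 of 2.

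The starved arrays were spread widely in these genes. Relative to the mean of the starved arrays, the median over the kinetochore and spindle list was 1.05 and 0.80 in starved replicates 3 and 4 and -1.03, -0.53 and -0.32 in replicates 1, 2 and 5. The IL-2 16 h arrays were at 2.02, 1.3 and 1.11, so replicate 3 of the treated cells was close to starved replicate 3. For the mitotic kinase list the groups overlapped, since IL-2 16 h replicate 3 was at 0.45 and starved replicates 3 and 4 at 0.86 and 0.93. For the origin licensing list the starved arrays ran from -0.50 to 0.47 and the IL-2 16 h arrays from 1.90 to 2.63, well apart. For ribosome biogenesis the starved arrays lay between -0.10 and 0.25 and the IL-2 16 h arrays between 1.18 and 1.79.

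Promoters of mitotic genes commonly carry a CHR element (TTTGAA, on either strand), often beside CCAAT boxes. It was found in 22 of 34 windows (64.7%) of the kinetochore and spindle list, in 12 of 22 windows (54.5%) of the mitotic kinase list and in 17.9% of all windows. For the origin licensing list the share was 22.2%, and the E2F motif was in 8.82% of the kinetochore and spindle windows. The windows of the called list members with the largest difference, 1 window and a match are shown with the CHR letters in capitals. Top2a lies at chr11:99024140-99024439 on the - strand and Spc25 at chr2:69206164-69206463 on the - strand, where the match starts 24 bases after the start site.
Top2a: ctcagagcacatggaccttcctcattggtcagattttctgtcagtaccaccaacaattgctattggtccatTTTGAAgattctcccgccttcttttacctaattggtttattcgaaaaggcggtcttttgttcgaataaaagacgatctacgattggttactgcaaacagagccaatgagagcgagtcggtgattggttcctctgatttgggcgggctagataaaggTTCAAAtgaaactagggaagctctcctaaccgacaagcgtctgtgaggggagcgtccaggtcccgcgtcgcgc
Spc25: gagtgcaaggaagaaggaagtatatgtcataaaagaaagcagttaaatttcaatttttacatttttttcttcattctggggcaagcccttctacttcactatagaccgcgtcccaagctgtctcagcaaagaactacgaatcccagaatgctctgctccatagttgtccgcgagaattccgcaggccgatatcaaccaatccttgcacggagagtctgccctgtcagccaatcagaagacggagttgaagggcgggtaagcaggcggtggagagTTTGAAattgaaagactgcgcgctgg

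In ribosome biogenesis 36 of 40 genes rose and 0 fell (median 1.42). Without replicate 1, 24 rose and 1 fell (median 1.18). Nop56, a core protein of the box C/D particles that methylate ribosomal RNA, was at 14390, 6227 and 5396 at 16 h against 1672, 754.3, 1239, 1089 and 857.4 in starved cells, a difference of 2.84 ± 0.42. Nolc1 rose by 2.55 ± 0.33 and Tsr1, which matures the small subunit, by 2.28 ± 0.39. Of 19 subunits and factors of RNA polymerases I and III, 6 rose and 2 fell (2 and 0 without replicate 1), led by the largest polymerase I subunits Polr1b (2.55 ± 0.44) and Polr1a (2.23 ± 0.37). The cytosolic ribosomal proteins themselves had a median difference of -0.03, with 1 of 19 that rose and 1 that fell. Rpl14 rose by 0.77 ± 0.18. Rpl37 fell by 1.06 ± 0.38 (adjusted p = 0.049), with overlapping arrays at 892.6, 3216 and 3740 at 16 h against 5256, 8725, 3358, 2042 and 6796 in starved cells, and its difference was -0.42 without replicate 1 and 0.65 on the scan day with replicate 2 alone.

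In the network of MYC, which drives growth in activated T cells, 2 of 11 genes rose and 2 fell. Each is 18.2% of the list, beside 8.98% and 10.8% over all genes. Myc was at 3350, 1171 and 1441 at 16 h against 325.0, 323.6, 207.3, 118.2 and 119.0 in starved cells, a difference of 3.06 ± 0.56. Mycn, its paralogue, was at 4848, 3124 and 1404 at 16 h against 517.4, 511.8, 181.8, 78.2 and 201.3 in starved cells, a difference of 3.44 ± 0.64. The antagonists Mxd4 and Mnt fell by 3.49 ± 0.69 and 0.87 ± 0.31, but Mnt (adjusted p = 0.0499) lost its call when any 1 of 7 of the 8 arrays was left out. Max, Mxd1, Mxd3, Mxi1, Mlx, Mlxip and Mga did not pass the test. Polyamine synthesis, a known MYC target pathway, had 3 of 9 genes that rose, and 1 that fell is described below with replicate 1. Srm, spermidine synthase, was at 6575, 3918 and 3814 at 16 h against 601.3, 543.5, 386.3, 378.5 and 448.2 in starved cells, a difference of 3.27 ± 0.39 (adjusted p = 2.3e-07). Odc1, ornithine decarboxylase, rose by 1.93 ± 0.27 and its regulator Azin1 by 1.76 ± 0.24.

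Of 37 nucleoporins, importins and exportins 22 rose and 0 fell (median 0.85, and 14 with a median of 0.61 without replicate 1). Ranbp1, a regulator of the transport GTPase Ran, was at 15140, 15520 and 13580 at 16 h against 2674, 2424, 4182, 4734 and 3580 in starved cells, a difference of 2.10 ± 0.22. The nuclear pore subunits Nup160, Nup107 and Nup85 rose by 2.11 ± 0.31, 1.92 ± 0.22 and 1.85 ± 0.27. Of 29 splicing and RNA processing genes 10 rose and 0 fell with replicate 1 and without it (medians 0.55 and 0.56). Srsf2, a splicing factor of the SR family, rose by 2.40 ± 0.30, Prpf31 by 1.88 ± 0.26, Snrpa1 by 1.85 ± 0.32 and Lsm3 by 1.59 ± 0.20. On the list of translation initiation and elongation 10 of 26 genes rose and 2 fell. Eef1e1 (2.27 ± 0.35), Eif2b3 (1.62 ± 0.32), Eif1a (1.3 ± 0.30) and the cap-binding protein Eif4e (1.06 ± 0.21) were in the lead. Eef1e1 is named as an elongation factor, but its protein is part of the aminoacyl tRNA synthetase complex. After median centring 8 rose and 0 fell.

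In mitochondria 12 of 20 chaperone and import genes rose and 0 fell (median 0.71, and 10 with a median of 0.85 without replicate 1). Timm8a1, an import chaperone of the intermembrane space, was at 5957, 3966 and 3987 at 16 h against 374.9, 516.6, 444.4, 526.5 and 545.3 in starved cells, a difference of 3.21 ± 0.34 (adjusted p = 3e-08). Hspd1, the HSP60 chaperonin, rose by 1.67 ± 0.26, Tomm40, the pore of the outer membrane, by 1.55 ± 0.25 and Timm23 of the inner membrane by 1.43 ± 0.25. In the cytosol 6 of 8 subunits of the CCT chaperonin, which folds actin and tubulin, rose, Cct3, Cct6a and Cct7 by 1.24 ± 0.21, 1.07 ± 0.19 and 0.96 ± 0.19. The calls of Tcp1 (0.64 ± 0.19) and Cct5 (0.57 ± 0.17) ended without replicate 1, that of Cct8 (0.50 ± 0.14) without replicate 3, and that of Tcp1 also without starved replicate 1 or 2. Cct2 and Cct4 had differences of 0.47 and 0.02. Of 21 cytosolic HSP70 and HSP90 genes and co-chaperones 9 rose and 2 fell (6 and 1 without replicate 1). The HSP90 partners Fkbp4 (1.73 ± 0.25) and Ahsa1 (1.53 ± 0.25) and the HSP70 partner Bag2 (1.50 ± 0.31) were higher. Fkbp4 rose on 1 of its 3 tested probe sets and Ahsa1 on 1 of 2. Hspa2, an HSP70 best known from testis, fell by 1.97 ± 0.45 and its call ended without replicate 1.

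In the endoplasmic reticulum 10 of 22 chaperones and factors of the unfolded protein response rose and 0 fell, and 10 rose without replicate 1 (medians 0.50 and 0.59). Creld2, a stress-induced folding factor, was at 15820, 10500 and 10660 at 16 h against 1804, 1422, 2372, 2278 and 2453 in starved cells, a difference of 2.57 ± 0.24 (adjusted p = 3.1e-09). The disulphide isomerases Pdia4 and Pdia6 rose by 1.53 ± 0.28 and 1.46 ± 0.24. Sdf2l1 rose by 1.40 ± 0.46, and this call ended without any 1 of the same 4 arrays as that of Nme1. Its rise was 1.79 without IL-2 16 h replicate 1 (limma, adjusted p = 0.024). The ER stress element, CCAAT and CCACG with 9 bases between them on either strand, was present in 8 of the 20 windows of these genes (40%) and in 39 of all 32851 windows (0.119%). Creld2 (chr15:88819396-88819695, + strand) and Pdia6 (chr12:17266339-17266638, + strand) are shown as the called members with the largest difference, 1 window and a match. Capitals mark the element.
Creld2: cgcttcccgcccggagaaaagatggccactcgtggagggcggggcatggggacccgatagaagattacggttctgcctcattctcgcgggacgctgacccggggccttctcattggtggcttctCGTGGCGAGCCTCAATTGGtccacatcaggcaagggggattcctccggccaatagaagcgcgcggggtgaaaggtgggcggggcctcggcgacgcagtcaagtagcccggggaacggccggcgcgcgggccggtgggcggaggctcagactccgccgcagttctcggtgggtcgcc
Pdia6: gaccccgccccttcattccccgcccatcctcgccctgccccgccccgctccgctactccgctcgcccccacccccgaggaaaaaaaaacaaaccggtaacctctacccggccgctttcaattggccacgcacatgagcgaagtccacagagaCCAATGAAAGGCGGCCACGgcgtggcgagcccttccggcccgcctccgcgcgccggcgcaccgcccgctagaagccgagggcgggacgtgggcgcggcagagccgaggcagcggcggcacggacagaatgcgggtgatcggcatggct

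Amino acid supply rose in part. Of 20 genes of the ATF4 response 5 rose and 0 fell, both with and without replicate 1. Phgdh, the first enzyme of serine synthesis, was at 16430, 15740 and 15410 at 16 h against 6028, 5239, 5199, 5966 and 6558 in starved cells, a difference of 1.45 ± 0.13 (adjusted p = 1e-09), with little spread in either group. Psat1, the next enzyme, rose by 1.23 ± 0.26, and Atf3, a stress transcription factor, by 2.25 ± 0.37. Cth of cysteine synthesis rose by 1.77 ± 0.60, a call lost without any 1 of 6 of the 8 arrays. It was kept without IL-2 16 h replicate 1, at 2.37 (limma, adjusted p = 0.018). Of 13 genes on the amino acid transporter list 6 rose and 0 fell, again with and without replicate 1. They included Slc7a5 (1.60 ± 0.23), which carries leucine, Slc7a1 (1.55 ± 0.22), which carries arginine, and Slc1a5 (1.26 ± 0.23), which carries glutamine. Slc43a3 (1.72 ± 0.28), also on the list, is a relative of amino acid transporters that itself carries nucleobases. Of 19 cytosolic aminoacyl tRNA synthetases 8 rose and 0 fell in both cases, led by Farsb (1.65 ± 0.28), Hars (1.55 ± 0.22), Lars (1.28 ± 0.18) and Eprs (0.88 ± 0.15). Tfrc, the transferrin receptor that takes up iron, was at 7774, 6434 and 3891 at 16 h against 547.3, 788.0, 1095, 1474 and 989.2 in starved cells, a difference of 2.62 ± 0.44, and Fth1, ferritin heavy chain, rose by 0.71 ± 0.14. The other 8 genes of iron handling did not pass the test.

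In glycolysis 1 of 18 genes rose and 1 fell (median -0.28), near or below the shares of 8.98% and 10.8% over all genes. These were the lactate transporter Slc16a1 (1.09 ± 0.23) and hexokinase Hk1 (-0.76 ± 0.21), and the fall of Hk1 did not pass without IL-2 16 h replicate 2 or after median centring. Of 35 genes of oxidative phosphorylation 4 rose (11.4%) and 0 fell (median 0.08). These were Cycs, cytochrome c, at 1.50 ± 0.25, Cyc1 at 1.02 ± 0.18, Ndufa5 at 0.75 ± 0.14 and Atp5d at 0.63 ± 0.19. The call of Atp5d ended without starved replicate 2 or without IL-2 16 h replicate 1, when the difference was 0.43, and on the scan day with replicate 2 alone it was -0.0044. Of 23 genes of the pentose phosphate pathway and TCA cycle 2 rose, Idh3a (0.87 ± 0.23) and Suclg1 (0.54 ± 0.13), and 1 fell, Idh1 (-2.02 ± 0.64), which makes NADPH in the cytosol. The calls of Idh3a and Idh1 ended without replicate 1, and that of Idh1 also without starved replicate 3 or 4 and after median centring. In cholesterol and fatty acid synthesis 5 of 26 rose (19.2%) and 0 fell (median 0.03), and without replicate 1 it was 3 and 0 (median 0.36), with Hsd17b7 (2.11 ± 0.33), Idi1 (1.73 ± 0.44) and Fasn (1.29 ± 0.29) among them. Mitochondrial ribosomal proteins had 19 of 36 genes that rose and 0 that fell (median 0.53, and 15 with a median of 0.58 without replicate 1), for example Mrps10 (1.19 ± 0.20) and Mrpl12 (1.02 ± 0.19). Whether the ribosomal protein lists differ was not tested. Of 35 proteasome genes 13 rose and 0 fell (10 without replicate 1), with the activator Psme3 at 1.72 ± 0.28, the assembly factor Psmg1 at 1.53 ± 0.27 and the lid subunit Psmd12 at 0.90 ± 0.17.

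Genes known to respond to IL-2 and STAT5 gave 13 of 31 that rose and 3 that fell (median 0.81, with 9 and 2 and a median of 0.80 without replicate 1). Ltb, lymphotoxin beta, went against Lta, its partner in the membrane complex, at 14.3, 9.7 and 57.5 at 16 h against 542.2, 378.6, 283.2, 284.0 and 115.5 in starved cells, a difference of -2.98 ± 0.53. Ltb was near the floor of the array at 16 h. Ctla4, an inhibitory receptor of activated T cells, fell by 3.04 ± 0.69, from 4934, 6234, 6680, 7577 and 3455 in starved cells to 109.2, 2110 and 1154 at 16 h. Replicate 1 was the lowest by far, and without it the difference was -1.83 (adjusted p = 0.1). Among 21 cytokines and chemokines 8 rose and 1 fell (4 and 1 without replicate 1). Il24, a cytokine of the interleukin 10 family, rose by 3.25 ± 1.05 with replicate 1 at 2536 and the others at 395.2 and 318.5, and its call ended without that array or without starved replicate 1 or 5. Of 27 immediate early genes and feedback phosphatases 5 rose and 4 fell, and 2 and 0 did so without replicate 1. With all arrays the shares were 18.5% and 14.8%, beside 8.98% and 10.8% over all genes. Fosl1 (rise of 3.04 ± 0.74), Egr2 (fall of 1.63 ± 0.47) and Nr4a2 (fall of 1.28 ± 0.30), all immediate early transcription factors, lost their calls without replicate 1.

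Among transcription factors of T cell fate 1 of 23 rose and 5 fell (1 and 4 after median centring, and 1 and 4 without replicate 1). With all arrays the shares were 4.35% and 21.7%, beside 8.98% and 10.8% over all genes. Batf3, an AP-1 family factor, was at 7297, 6405 and 7250 at 16 h against 592.7, 447.4, 351.6, 434.5 and 825.3 in starved cells, a difference of 3.74 ± 0.44 (adjusted p = 1.8e-07), and its 3 treated arrays were close together. Bcl6, a repressor known from follicular helper T cells, was at 52.1, 115.3 and 154.4 at 16 h against 943.0, 562.9, 624.7, 369.7 and 597.7 in starved cells, a difference of -2.40 ± 0.41. Nfatc1 fell by 1.26 ± 0.31 and Ikzf3, Aiolos, by 1.03 ± 0.22. Of the receptor signalling genes 3 of 21 rose and 10 fell (median -0.37), which became 3 and 2 after median centring. Cd8a, a coreceptor of cytotoxic T cells, rose to 551.2, 1384 and 699.9 at 16 h from 190.9, 310.9, 168.8, 181.2 and 178.2, a difference of 1.93 ± 0.37. Themis, which sets receptor signal strength in thymocytes, fell by 1.98 ± 0.44, and the kinase Fyn by 1.28 ± 0.29, a fall that did not pass after centring (adjusted p = 0.052).

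No quiescence gene or FoxO target rose. Of 25 tested, 12 fell and 0 rose (median -1.03), 7 fell without replicate 1 (median -0.95) and 9 fell after median centring. Pik3ip1 and Mxd4 are given above. Fbxo32, atrogin-1, was at 57.4, 76.3 and 56.3 at 16 h against 364.9, 362.8, 912.8, 671.0 and 356.4 in starved cells, a difference of -2.69 ± 0.60. Ypel3, a growth suppressor, was at 257.1, 1102 and 669.7 at 16 h against 3935, 2817, 3098, 4898 and 2851 in starved cells, a difference of -2.54 ± 0.52. For Fbxo32 and Ypel3 the groups did not overlap. Autophagy and lysosome genes gave 13 of 33 that fell and 1 that rose (median -0.47). Without replicate 1, 5 fell, and after median centring 1 fell, Atg14 (-1.09 ± 0.25, adjusted p = 0.026 after centring), which acts in the formation of autophagosomes. The call of Sqstm1 (-1.39 ± 0.35), an autophagy receptor, ended without replicate 1, and that of Map1lc3a (-1.26 ± 0.35) without replicate 2.

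Interferon response genes fell in 13 of 23 cases and rose in 0 (median -0.97), with 10 without replicate 1 (median -1.03) and 6 after median centring. Gbp2 was at 4.4, 23.9 and 64.8 at 16 h against 352.8, 348.6, 547.9, 308.3 and 649.0 in starved cells. Irf7, the regulator of type I interferon genes, was at 100.4, 133.4 and 99.9 at 16 h against 529.9, 507.6, 523.1, 863.4 and 288.3 in starved cells, a difference of -2.06 ± 0.46, and Irf1 fell by 1.33 ± 0.28. Ddx58, the RNA sensor RIG-I, was at 436.0, 616.5 and 688.5 at 16 h against 1304, 1403, 1330, 1300 and 1400 in starved cells, a difference of -1.22 ± 0.23. Starved arrays of Ddx58 were within a narrow range and all IL-2 16 h arrays lay below them. Class I antigen presentation had 2 of 11 that fell, Tap2 (-1.27 ± 0.34) and Psmb9 (-1.40 ± 0.42), neither of which passed without replicate 1 or after median centring. The major class I genes B2m, H2-K1 and H2-D1 had differences of -0.27, -0.19 and -0.28 and did not pass the test. The interferon-stimulated response element, written here as GAAA, any 2 bases and GAAA on either strand, was in 15 of 25 windows of the interferon list (60%) and in 3.44% of all windows. Windows of Gbp2 (chr3:142620413-142620712, + strand) and Ddx58 (chr4:40239776-40240075, - strand), chosen in the same way as above, are shown with the element in capitals.
Gbp2: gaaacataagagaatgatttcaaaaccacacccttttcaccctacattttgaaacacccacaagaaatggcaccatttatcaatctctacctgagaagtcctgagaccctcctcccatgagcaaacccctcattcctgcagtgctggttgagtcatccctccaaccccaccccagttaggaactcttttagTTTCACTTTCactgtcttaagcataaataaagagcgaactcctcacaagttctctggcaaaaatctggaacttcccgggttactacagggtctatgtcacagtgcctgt
Ddx58: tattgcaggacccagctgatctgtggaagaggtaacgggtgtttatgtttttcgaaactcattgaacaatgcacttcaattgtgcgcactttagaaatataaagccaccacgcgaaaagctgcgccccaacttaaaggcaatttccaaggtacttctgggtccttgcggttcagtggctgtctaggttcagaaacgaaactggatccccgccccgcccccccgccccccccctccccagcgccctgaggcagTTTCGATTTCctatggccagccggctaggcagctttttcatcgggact

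All 9 tested members of the JAK and STAT family, the kinases and transcription factors of cytokine signalling, fell (median -1.002), and 6 did so without replicate 1. Stat5b, which carries the IL-2 signal, was at 945.7, 1553 and 1958 at 16 h against 2878, 2803, 3181, 2725 and 3287 in starved cells, a difference of -1.05 ± 0.21. Its paralogue Stat5a was at 2291, 1137 and 1617 at 16 h against 3710, 3396, 3295, 3194 and 2675 in starved cells, a difference of -0.99 ± 0.20. Stat6, Tyk2 and Jak2 fell by 1.08 ± 0.20, 1.13 ± 0.19 and 1.00 ± 0.24. In all 9 genes of the family every IL-2 16 h array lay below every starved array. Jak1 fell by 0.66 ± 0.15. Jak3, Stat2 and Stat3 fell by 1.26 ± 0.29, 0.97 ± 0.27 and 0.73 ± 0.18, and their calls ended without replicate 1. After median centring 5 of the 9 fell, and Jak1, Jak3, Stat2 and Stat3 did not pass. The centred differences of the 9 ran from -1.02 to -0.42. Centring shifts the difference of every gene by the same amount, so the unchanged direction is no separate support.

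Of 16 pro-apoptotic genes 2 rose and 4 fell, and 2 rose and 2 fell without replicate 1. With all arrays the shares were 12.5% and 25%, beside 8.98% and 10.8% over all genes. Bcl2l11, BIM, the BH3 protein that kills T cells deprived of cytokine, was at 1376, 1362 and 1141 at 16 h against 7729, 4148, 5943, 8550 and 3395 in starved cells, a difference of -2.11 ± 0.52, and it fell on all 5 of its probe sets. Bmf and Bbc3, PUMA, fell by 2.37 ± 0.57 and 1.70 ± 0.45, both lost without replicate 1, when their differences were -1.90 and -1.05. Casp8 rose by 1.27 ± 0.26. Of 13 anti-apoptotic genes 6 rose and 1 fell, and without replicate 1 the 1 called gene was Bcl2. Bcl2, which blocks mitochondrial death signals, was at 5403, 7872 and 4706 at 16 h against 2222, 1470, 2534, 2765 and 2400 in starved cells, a difference of 1.39 ± 0.35, and 1.44 without that array. Birc5, survivin, and the kinases Pim3 and Pim2 rose by 1.85 ± 0.64, 1.79 ± 0.55 and 1.57 ± 0.51. The calls of these 3 genes ended without replicate 1 and without several other arrays. Of 16 p53 targets 1 rose and 4 fell (6.25% and 25%), and 0 rose and 2 fell without replicate 1. Trp53inp1 was at -2.46 ± 0.50 and Sesn1 at -1.12 ± 0.29. Of 16 genes of mRNA decay and antiproliferation 4 fell (25%), 1 without replicate 1, and Zfp36l2, which destabilises AU-rich mRNAs, was at -1.09 ± 0.24. Cytotoxic effectors had 0 of 18 genes that rose and 2 that fell (median 0.06), a share of 11.1% beside 10.8% over all genes, with 1 that fell without replicate 1 and 0 after median centring. Homing and chemokine receptors had 3 of 17 that fell (2 without replicate 1, 1 after median centring), among them S1pr4 (-1.15 ± 0.24), a receptor for sphingosine phosphate, and Selplg (-0.67 ± 0.20), a selectin ligand, whose call ended without replicate 1, without starved replicate 4 and after median centring. Costimulatory and inhibitory receptors had 4 of 20 that fell (20%), and after median centring 1 fell. Without replicate 1, 1 fell and 1 rose. Fasl, Fas ligand, a cytotoxic effector, fell by 1.05 ± 0.29, and its call ended without replicate 2 and after median centring.

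Replicate 1 differed from the other treated arrays by gene and by list. Sat1, which acetylates polyamines for export, was at 497.1, 6024 and 6834 at 16 h against 10460, 13960, 11020, 12070 and 13150 in starved cells, and its difference of -2.12 ± 0.58 became -0.91 without that array (adjusted p = 0.34). Btg2, an antiproliferative p53 target, was at 196.2, 1577 and 1122 at 16 h against 1909, 3921, 4929, 5936 and 3452 in starved cells, and its difference of -2.38 ± 0.51 became -1.49 (adjusted p = 0.064). Lag3, an inhibitory receptor, went from -0.93 ± 0.27 to -0.34, and did not pass after median centring. In each of these genes and in Ctla4, replicate 1 had the lowest signal of the 8 arrays. By list, the median over nucleoporins, importins and exportins was 1.55 on replicate 1 and 0.73 and 0.64 on replicates 2 and 3. For ribosome biogenesis it was 1.79 against 1.23 and 1.18, and for the mitotic kinases 1.80 against 1.15 and 0.45. For glycolysis it was -0.61 against 0.02 and -0.05, and for the ATF4 response 0.15 against 0.54 and 0.62. Medians of the endoplasmic reticulum list (0.45, 0.55 and 0.68) and the proteasome list (0.42, 0.61 and 0.39) did not set replicate 1 apart.

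**Figure D3:**
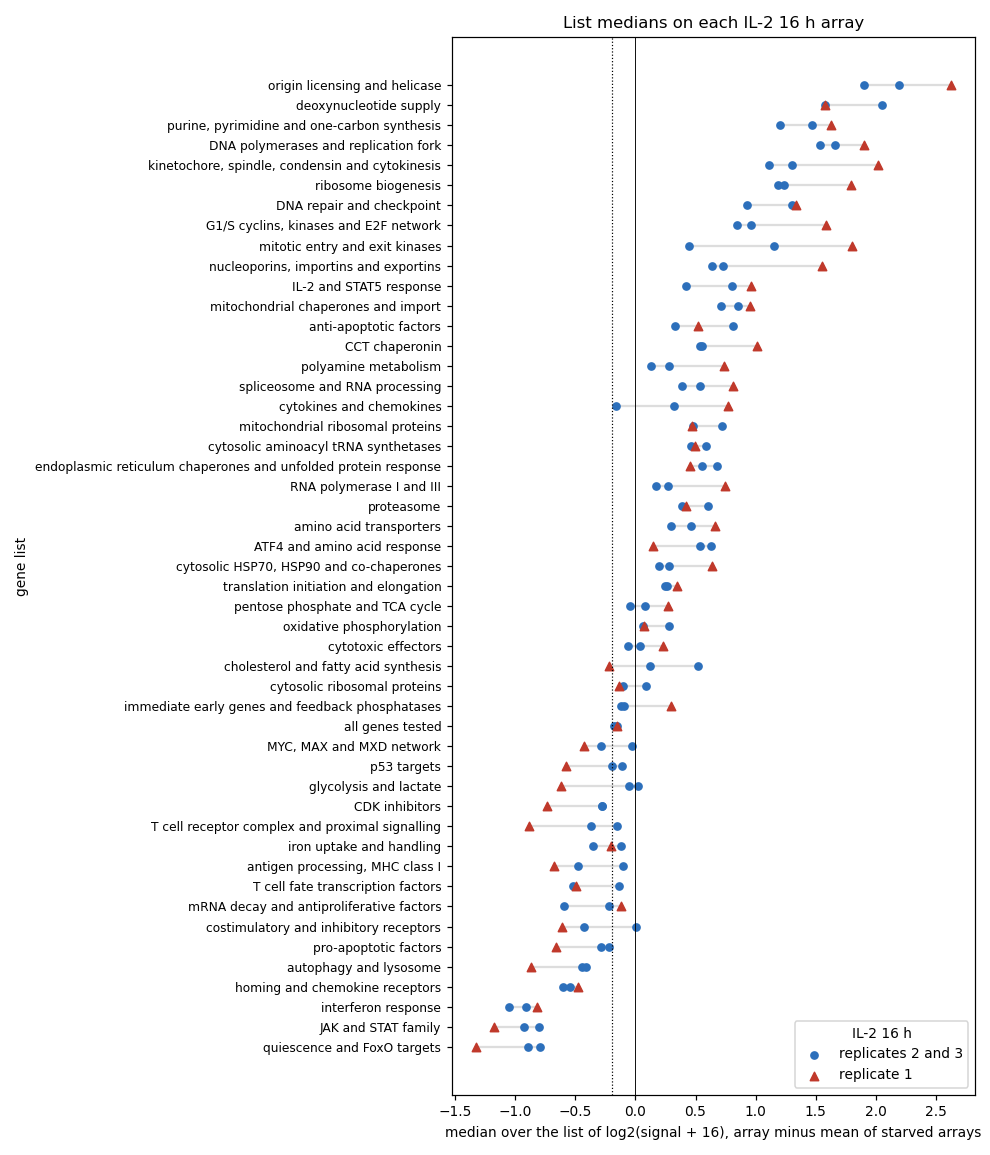
Median of each gene list on the 3 IL-2 16 h arrays, as log2(signal + 16) minus the mean of the 5 starved arrays. Red triangles are replicate 1, blue circles replicates 2 and 3, the dotted line is the median of all genes at -0.19, and lists are sorted by their median over the group. Of the 3 arrays, replicate 1 is the highest for nucleoporins (1.55) and the lowest for glycolysis (-0.61).

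Against the neighbouring times no probe set passed limma's test, neither against 12 h (0% of 32184, with 1179 at an unadjusted p under 0.05) nor against 24 h (0%, with 2066). With only the arrays compared, these unadjusted counts were 1037 against 12 h and 511 against 24 h. The count that passed against 24 h was unstable: it was 709 without IL-2 24 h replicate 1, 341 with arrays weighted by their quality and 548 without the arrays of scan day 2. Scan day 2 held IL-2 24 h replicate 1, so the counts of 709 and 548 both lack that array. The values are therefore given as a description. The largest shift of a list from 12 h was in the kinetochore and spindle list, whose median of gene differences between 16 h and 12 h was 1.12, and in the mitotic kinase list at 0.97. On single arrays the kinetochore and spindle median was 1.03, 0.26 and -0.22 at 12 h, 2.02, 1.3 and 1.11 at 16 h, and 1.27, 2.06 and 2.12 at 24 h. Every 16 h array was thus above every 12 h array, and the 16 h and 24 h arrays overlapped. Origin licensing had a median of 2.78, 2.21 and 1.65 at 12 h and of 2.59, 1.78 and 1.44 at 24 h, and both overlapped with 16 h. In ribosome biogenesis the 24 h arrays were at 1.75, 0.37 and 0.21, so that 2 of them lay below all 16 h arrays. The IL-2 and STAT5 list was at 1.37, 1.20 and 0.98 at 12 h and 0.97, 0.80 and 0.42 at 16 h, so the lowest 12 h array was next to the highest 16 h array. The interferon list was at -1.12, -1.14 and -1.17 at 12 h, -0.82, -1.05 and -0.91 at 16 h and -0.66, -0.68 and -0.45 at 24 h. These times all share the starved arrays as their reference.

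**Figure D4:**
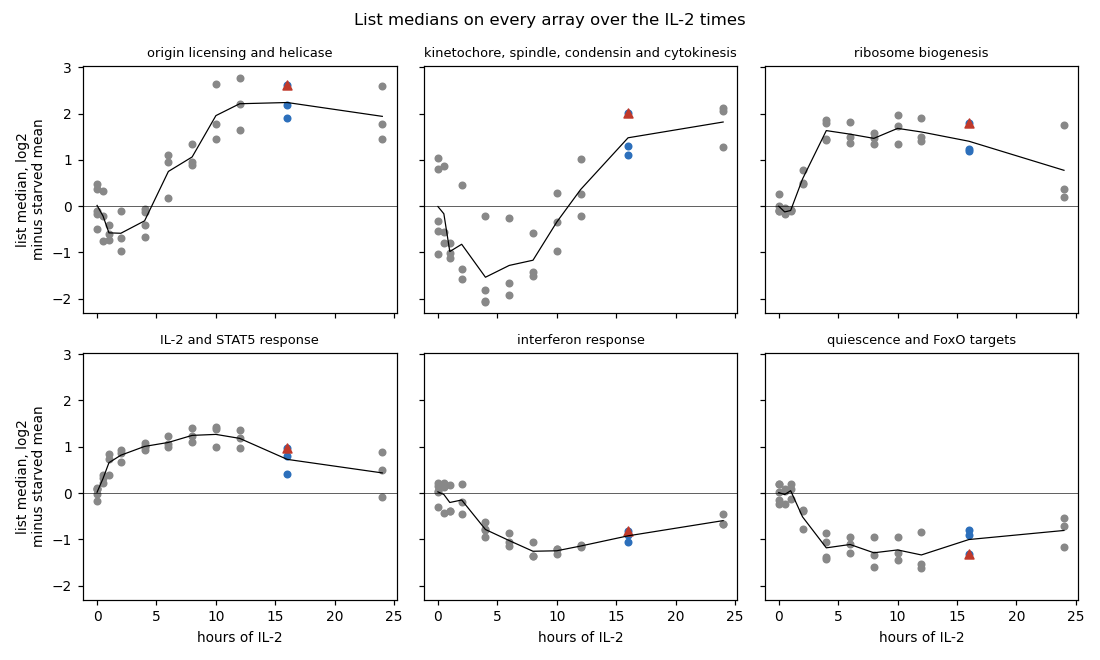
Median of 6 gene lists on every starved array (0 h) and every array with IL-2 against hours of IL-2, as log2(signal + 16) minus the mean of the starved arrays, with a line through the mean of the arrays at each time. Blue points are IL-2 16 h, the red triangle its replicate 1, gray points all other times. At 16 h the kinetochore and spindle list is above 12 h on every array (1.11 to 2.02 against -0.22 to 1.03).

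**Figure D5:**
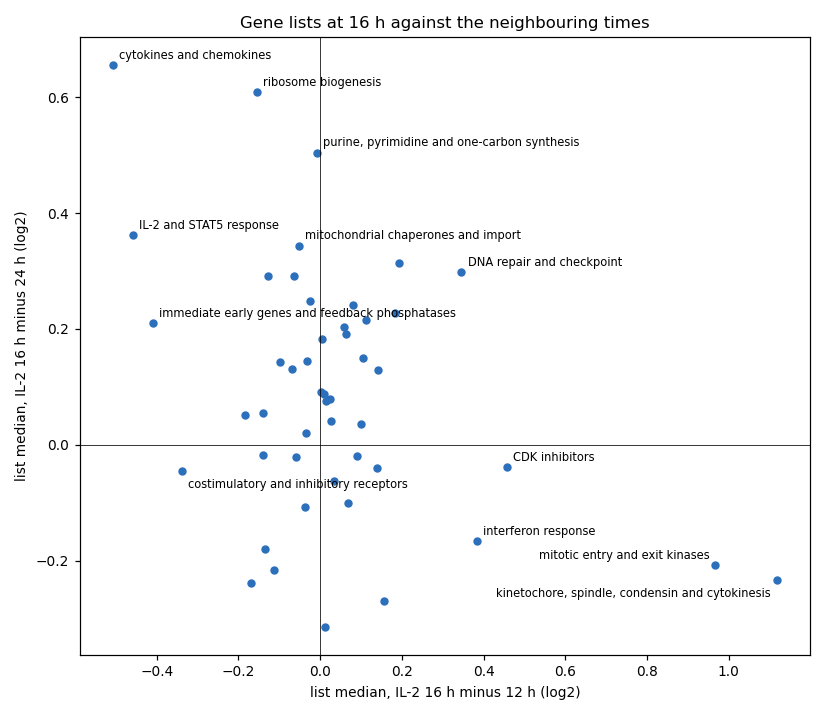
Median over each gene list of the difference between IL-2 16 h and 12 h (horizontal axis, log2) and between IL-2 16 h and 24 h (vertical axis, log2), one point a list. The kinetochore list (1.12 from 12 h) and the mitotic kinase list (0.97) stand to the right, and cytokines and chemokines (-0.51 and 0.66) and ribosome biogenesis (-0.16 and 0.61) at the upper left.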

How the data were processed

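Gene expression in CTLL-2 cells was measured on Affymetrix Mouse 430 2.0 arrays. The authors deposited signal intensity on a linear scale, computed with GCOS 1.3 per the submitters' processing notes. The log2 values were computed here from the deposited signals as log2(signal + 16). Probe sets brighter than the median of the array on 3 or more arrays were tested, 32184 in all, and control probe sets were removed. Differences came from limma 3.58.1 in R 4.3.3, with 1 mean per group over all 43 arrays, a variance trend, a two-sided test and Benjamini-Hochberg adjustment over all probe sets. Sharing the spread over all groups assumes that they vary alike. The median residual standard deviation was 0.552 over all arrays. With only the arrays compared it was 0.505 against starved cells, 0.463 against 12 h and 0.616 against 24 h. Mean correlations within a group were 0.887 to 0.913 at 24 h and 0.930 to 0.943 at 16 h, so the 24 h arrays varied more. Gene names came from GEO's platform annotation (34958 probe sets with 1 gene, 932 with several and 9211 with none). A lookup by gene identifier in RefSeq changed no symbol. A gene took its tested probe set with the highest mean. Other tested probe sets of a called gene did not always pass the test. Named genes were the top 15 called genes in each direction by size of difference without overlap between groups, the 4 called members of each list with the largest difference, and all members of lists of 12 or fewer genes. Genes outside this rule are said to be so or belong to a count of 5 or fewer. The members and lists were chosen with earlier results of these data known. Alternatives were other constants, filters and scalings, only the arrays compared, a replicate or scan day block, array weights and leaving out each array. The number of arrays limits the precision. The test was checked on simulated data with independent noise and the same spread on all arrays. That check therefore cannot cover effects shared by a scan day or arrays that vary more than others. p-values measure only the spread between these arrays.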

Additional observations from a re-analysis of the deposited data

Results flagged for a closer look

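In 8 of the 275 named genes, 1 of the 5 starved arrays passed a test for a distant value. The value given is its gap to the nearest array over the range of the group, with 0.71 as the critical value for 5 arrays, and chance alone flags about 1 in 20 groups, so that 8 of 275 is no more than chance gives. In Ptprs (0.767) starved replicate 5 was the lowest at 2396. In Atf3 (0.739) replicate 5 was the highest at 273.1. In Cct4 (0.756), Psmc4 (0.817) and Steap3 (0.789) replicate 4 was the lowest, at 9360, 856 and 110.2. In Fasl (0.716) replicate 1 was the highest at 11140, and in Klf1 (0.825) it was the lowest at 37.5. In Cd8a (0.802) replicate 2 was the highest at 310.9.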

How the results depend on the processing

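The comparison of IL-2 16 h with starved cells called 4952 probe sets. The count was 2921 with at least a 2-fold difference, 2751 without IL-2 16 h replicate 1, and 2177 with only the arrays compared and without that replicate, an alternative chosen after seeing the data. Leaving out each array in turn gave 2751 to 4688. It was 3354 with only the arrays compared, 3847 after median centring, 4995 after quantile normalisation, 6884 with scan day as a fixed block and 6645 with it as a random block. Against 12 h the count was 0 throughout, and leaving out arrays gave 0 to 0. Against 24 h it was 1 with a constant of 1, 341 with array weights, 548 without scan day 2 (chosen after seeing the data), and 0 to 709 when arrays were left out, with 709 without 24 h replicate 1 and 1 without 24 h replicate 3. The 548 and the 709 both leave out 24 h replicate 1, which was scanned on day 2. With the replicate number as a block 5074 probe sets were called, and 0 against 12 h and 24 h. Same-numbered arrays deviated with correlations of 0.18, -0.05 and -0.05, and all pairs across the 2 groups ran from -0.18 to 0.27. These few values cannot decide whether the numbers pair the arrays, and the arrays were treated as unpaired. Of 203 called named genes, 153 kept their call whichever array was left out, 41 lost it without IL-2 16 h replicate 1 and 26 after median centring. On the scan day with IL-2 16 h replicate 2 and starved replicate 4 alone, each difference rests on 1 array against 1. There 70 of the 203 lay further from the value over all arrays than 1 standard deviation between replicates. A difference of single arrays often varies by that much, so this count cannot measure an effect of scan day. In 2 genes the sign reversed: Rpl37 was 0.65 (-1.06 over all arrays) and Atp5d was -0.0044 (0.63 over all arrays). The cause was not tested.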
